A study of Mus musculus with 30 samples.

Results

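The 10 genes described are Stat3, Stat5a and Stat5b, 3 transcription factors of cytokine signalling, together with Sbno2, Bcl3, the receptor gene Osmr and the feedback genes Socs1, Socs2, Socs3 and Cish. They were taken by gene symbol, and each matched 1 of the 55426 genes of the count table. The set was put together with the tendon results at 5 days known, where Sbno2 and Stat5a passed the threshold for stimulated against unstimulated libraries. Values of the 10 genes in 5-day tendon are therefore given as a description, with no test.

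The RNA came from 2 tissues of mice whose muscles were made to contract by light, the Achilles tendon and the heel bone it attaches to (calcaneus). All 30 samples carry the genotype label Acta1,Ai32, controls included: Acta1 is the skeletal muscle actin gene, and Ai32 is a channelrhodopsin reporter allele that Cre recombinase switches on. For each tissue the groups are stimulated and unstimulated at day 5, stimulated and unstimulated at day 12, and naive at day 0, with 3 samples per group. Titles of stimulated samples also carry the word control, and these samples were taken as stimulated from their treatment labels. Sex, age and the driver of Cre are not stated in the labels, and neither is whether replicates came from separate animals, so p-values measure the spread between samples, which may be technical.

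Cytokines of the interleukin-6 family bind receptors that share gp130, while growth hormone and several blood cell growth factors bind receptors that signal mainly through STAT5. Janus kinases on the receptor phosphorylate STAT proteins, which pair, enter the nucleus and bind sites of the form TTCNNNGAA. Among the genes they switch on are Socs3 and Cish, whose products dampen the same receptors, and Sbno2, which was described in mouse macrophages as a STAT3-dependent gene of the interleukin-10 response.

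The letters upstream of Sbno2 and Socs3 are shown because, of the 9 members with a promoter in the RefSeq table, these 2 held that motif within 250 bases before an annotated start. Both genes lie on the minus strand of GRCm38.p6, the sequences run 5′ to 3′ toward the start, and capitals mark TTCNNNGAA, which reads the same on both strands. The Sbno2 windows are chr10:80102703-80102952 for start 1 and chr10:80101188-80101437 for start 2, and the Socs3 window is chr11:117969367-117969616.
Sbno2 start 1: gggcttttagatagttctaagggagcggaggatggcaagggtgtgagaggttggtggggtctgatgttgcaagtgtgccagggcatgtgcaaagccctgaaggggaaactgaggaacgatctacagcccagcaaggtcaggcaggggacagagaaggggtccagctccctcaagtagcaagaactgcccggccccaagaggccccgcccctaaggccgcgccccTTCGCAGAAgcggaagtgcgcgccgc
Sbno2 start 2: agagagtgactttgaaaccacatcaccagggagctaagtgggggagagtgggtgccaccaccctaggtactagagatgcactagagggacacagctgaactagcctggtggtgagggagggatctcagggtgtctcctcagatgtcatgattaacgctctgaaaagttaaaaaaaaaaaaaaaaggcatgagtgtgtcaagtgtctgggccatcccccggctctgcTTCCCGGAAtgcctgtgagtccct
Socs3: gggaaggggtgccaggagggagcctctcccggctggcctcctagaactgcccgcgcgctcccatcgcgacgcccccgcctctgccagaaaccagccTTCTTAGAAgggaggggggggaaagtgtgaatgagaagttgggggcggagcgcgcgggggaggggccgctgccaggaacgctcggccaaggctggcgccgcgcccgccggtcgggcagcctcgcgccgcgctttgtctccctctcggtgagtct
The motif began 26 bases before Sbno2 start 1, 24 bases before start 2 and 154 bases before the Socs3 start, and another listed Sbno2 start had no match. Of 27025 genes in the table, 2197 (8.13%) had the motif in the same window of at least 1 promoter, as had 2306 of 32851 promoters (7.02%). The windows of Stat3, Stat5a, Stat5b, Osmr, Bcl3, Socs1 and Cish held no match, which says only that these letters are not in that window. Promoters are as listed by RefSeq, and the Socs3 and Sbno2 windows lie inside the longer gene spans of the GENCODE annotation.

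Library totals ran from 24.5 to 44.6 M counts in tendon and from 19.3 to 35.0 M in bone, apart from 52.6 M for 1 bone library that is the sum of unstimulated 5-day samples 1 and 2, which were nearly identical and are counted once. Levels are CPM (read counts scaled by library size) after TMM scaling within the tissue, unless both tissues are named. Tendon fibroblast markers do not set the tissues apart: 6 of them summed 438 to 3124 CPM in tendon libraries and 1547 to 5041 CPM in bone libraries. The 10 muscle fibre markers summed 85280 to 186943 CPM in tendon, so muscle RNA was present throughout. Osteoblast and osteocyte markers summed 2243 to 4607 CPM in bone and 4.26 to 46.3 CPM in tendon. In bulk tissue, fewer cells of a type and less RNA per cell cannot be told apart.

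At 5 days in tendon, 6 of the 10 genes were higher in every stimulated library than in every unstimulated one: Sbno2, Bcl3, Stat3, Stat5a, Osmr and Socs3. All 10 log2 fold changes were above 0, with a median of 0.62 against -0.00 over all 17108 genes tested. Of all genes, 7.1% were non-overlapping and higher, and 0.0585% passed an adjusted p of 0.05, Sbno2 and Stat5a among them. Those shares are given for scale only, since this comparison chose the set. The calls of Sbno2 and Stat5a were not firm: with each of 6 libraries left out in turn, Sbno2 passed in 1 edgeR fit and Stat5a in 2. Neither passed with only the libraries compared in the fit.

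Sbno2 encodes a helicase-family protein that acts in transcription (chr10:80056992-80105571, minus strand, GRCm38). It had 82.6, 102 and 51.9 CPM in stimulated tendon at 5 days, against 24.3, 27.3 and 29.7 CPM in unstimulated tendon. The lowest stimulated library was thus above the highest unstimulated one, and the stimulated libraries were spread more widely. Its log2 fold change was 1.54 ± 0.21 (standard error).

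Bcl3 encodes an atypical IκB protein that binds NF-κB subunits in the nucleus and is also a known STAT3 target (chr7:19808462-19822770, minus strand). Its level was 8.48, 7.93 and 5.15 CPM in stimulated libraries, against 2.25, 3.21 and 2.24 CPM in unstimulated libraries. As for Sbno2, library 3 was the lowest of the stimulated group and the groups stood apart. Bcl3 thus had a log2 fold change of 1.48 ± 0.25. Annotated antisense genes Gm16175 and Gm16174 overlap Bcl3, and without a stated strand setting their reads cannot be told from its own.

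The 3 STAT genes sit side by side on chromosome 11. Stat5a (chr11:100859351-100885169, plus strand) had 51.4, 40.2 and 35.4 CPM in stimulated tendon, against 21.3, 21.6 and 24.4 CPM in unstimulated tendon. These groups did not overlap, and the log2 fold change was 0.91 ± 0.12. Stat5b (chr11:100780731-100850724, minus strand) had 161, 155 and 129 CPM in stimulated libraries, against 145, 142 and 86.6 CPM in unstimulated libraries. Here the groups overlapped, unstimulated library 3 was far below the others, and the log2 fold change was 0.26 ± 0.17. Stat5a and Stat5b encode close relatives with shared and separate roles: 608 of the 50-base words of their transcripts are common to both, which is 8.21% of Stat5a and 11% of Stat5b words, so part of the reads were divided between them by estimate.

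Stat3 encodes the main STAT of gp130 receptors (chr11:100885098-100939540, minus strand). It had 163, 152 and 137 CPM in stimulated tendon, against 105, 107 and 128 CPM in unstimulated tendon. The groups stood apart by a small margin, and the log2 fold change was 0.41 ± 0.13. Its end overlaps the end of Stat5a on the other strand, so reads there are uncertain between both genes.

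Osmr encodes the receptor chain that joins gp130 to bind oncostatin M (chr15:6813577-6874969, minus strand). Its level was 35.7, 28.6 and 28.4 CPM in stimulated libraries, against 13.9, 15.3 and 23.1 CPM in unstimulated libraries. The groups did not overlap, and unstimulated library 3 stood nearest to the stimulated ones. For Osmr the log2 fold change was 0.82 ± 0.19, and 1.08 without that library.

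Among the feedback genes, only Socs3 had groups that did not overlap, and differences between these genes were not tested. Socs3, which encodes an inhibitor of gp130 signalling (chr11:117966079-117970047, minus strand), had 25.4, 17.8 and 22.8 CPM in stimulated tendon, against 7.52, 8.33 and 5.87 CPM in unstimulated tendon. Those groups stood well apart, with a log2 fold change of 1.61 ± 0.50. Socs2, which encodes an inhibitor of growth hormone signalling (chr10:95385362-95417180, minus strand), had 9.69, 14.1 and 13.4 CPM in stimulated libraries, against 6.95, 10.4 and 10.3 CPM in unstimulated libraries. Its groups overlapped and the log2 fold change was 0.42 ± 0.21.

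Cish, a feedback gene of STAT5 (chr9:107296026-107302784, plus strand), had 14.7, 25.5 and 17.7 CPM in stimulated tendon at 5 days, against 10.2, 25.4 and 11.7 CPM in unstimulated tendon. Library 2 was the highest of each group, the groups overlapped, and the log2 fold change was 0.29 ± 0.65. Genes Gm17040 and Gm17041 overlap Cish on the other strand. Socs1, which encodes a direct inhibitor of Janus kinases (chr16:10782240-10785536, minus strand), had 1.64, 1.73 and 1.71 CPM in stimulated libraries, against 1.84, 1.38 and 1.10 CPM in unstimulated libraries. Its groups overlapped, with a log2 fold change of 0.24 ± 0.72.

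**Figure D1:**
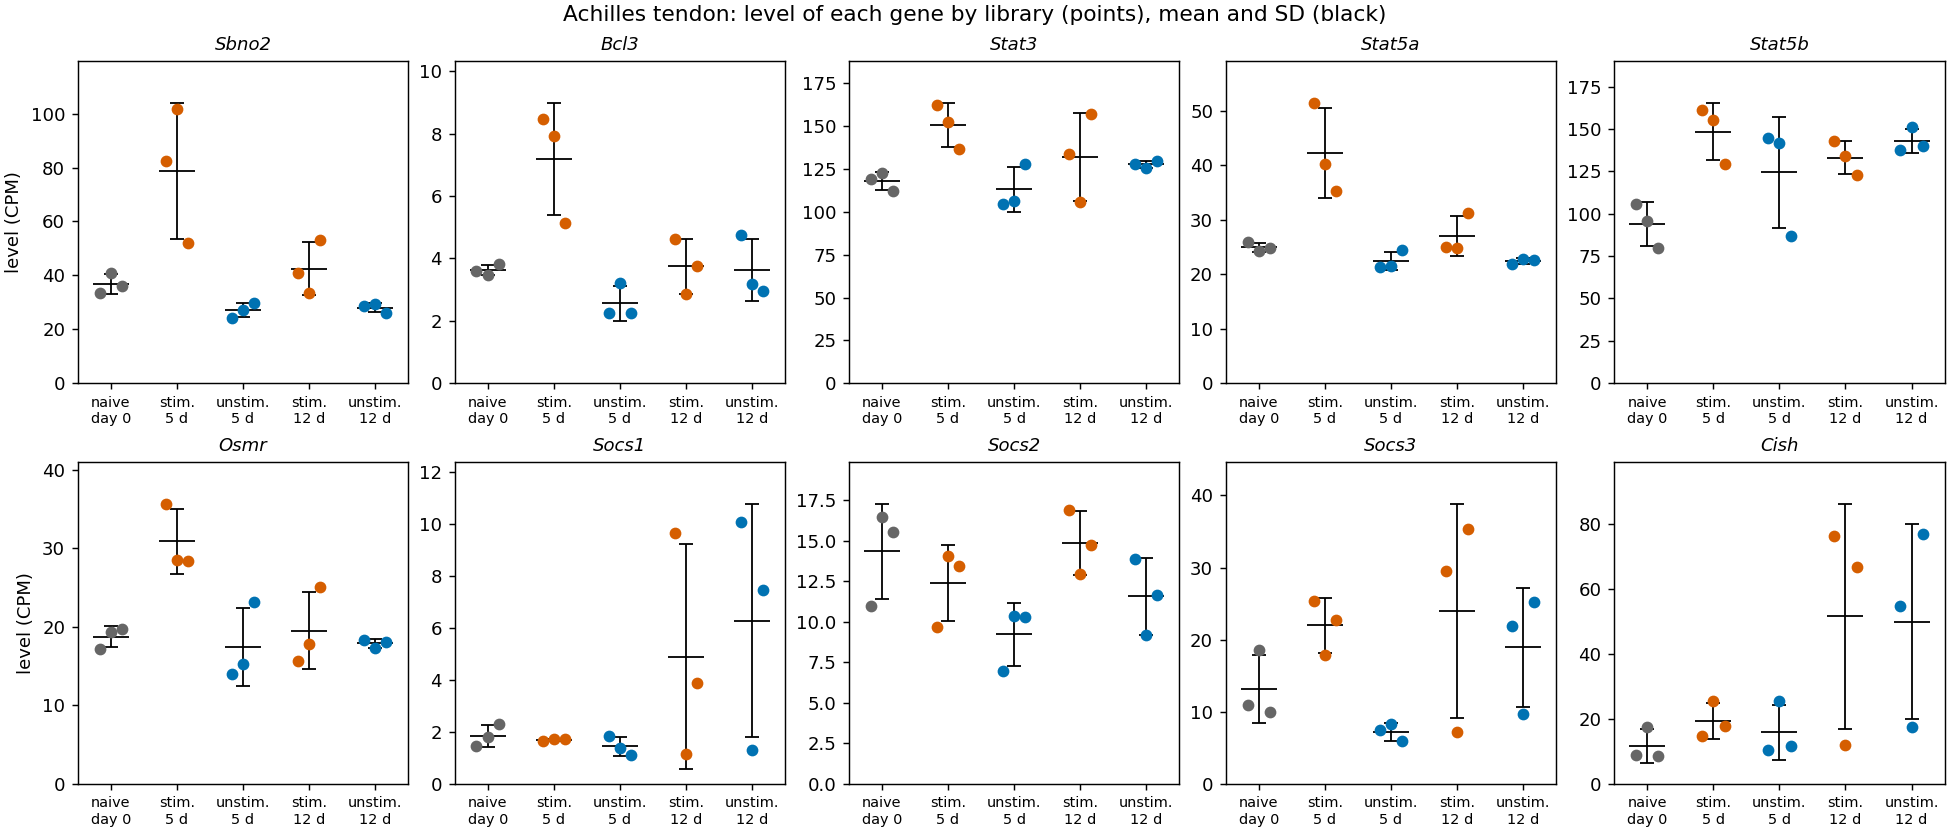
Level in CPM of each of the 10 genes in the 15 tendon libraries, one panel per gene, by group along the horizontal axis; points are libraries, and black bars are the mean and SD of 3. Stimulated libraries at 5 days (orange) stand above the unstimulated ones (blue) for Sbno2, Bcl3, Stat3, Stat5a, Osmr and Socs3, while Socs1, Socs3 and Cish spread widely at 12 days.

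Several cell type markers were read beside these values. Over 6 macrophage markers, stimulated tendon summed 83.3 to 108 CPM and unstimulated tendon 73.7 to 114 CPM, so these ranges overlapped. Over 7 neutrophil markers the sums were 0.436 to 8.96 CPM in stimulated and 0.587 to 3.60 CPM in unstimulated tendon, with up to 3 of the 7 at 0 in a stimulated library. Muscle fibre sums overlapped as well, at 106817 to 126154 CPM in stimulated and 97627 to 169153 CPM in unstimulated tendon.

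Markers of osteoclasts and of Schwann cells did not overlap, and both were lower in stimulated tendon. The 5 osteoclast markers summed 50.4 to 76.1 CPM in stimulated and 87.0 to 217 CPM in unstimulated libraries. The 4 Schwann cell markers summed 13.98 to 20.7 CPM in stimulated and 31.6 to 1625 CPM in unstimulated libraries, the highest being unstimulated library 3. The part of these cells in the members' values was not tested.

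Against naive tendon, 6 members were higher in every stimulated 5-day library (Sbno2, Bcl3, Stat3, Stat5a, Stat5b and Osmr, where 14.4% of all genes were), and 4 were lower in every unstimulated one (Sbno2, Bcl3, Socs2 and Socs3, where 9.26% were). These values are again given without a test. Sbno2 had 33.5, 41.0 and 36.0 CPM in naive tendon, above all 3 unstimulated and below all 3 stimulated libraries at 5 days. Its log2 fold change was 1.10 ± 0.21 for stimulated against naive and -0.44 ± 0.21 for unstimulated against naive, and both rest on the same naive libraries. Bcl3 had the same order, with 3.60, 3.46 and 3.80 CPM in naive libraries and log2 fold changes of 0.99 ± 0.24 for stimulated and -0.50 ± 0.25 for unstimulated tendon.

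Stat5a had 25.8, 24.2 and 24.7 CPM in naive tendon, within a narrow range that met the unstimulated one. Its log2 fold change was 0.76 ± 0.12 for stimulated and -0.15 ± 0.12 for unstimulated libraries against naive. Osmr had 17.2, 19.4 and 19.7 CPM in naive tendon, with log2 fold changes of 0.72 ± 0.19 for stimulated and -0.10 ± 0.19 for unstimulated tendon. The second of these was -0.36 without unstimulated library 3 and 0.04 without unstimulated library 1, so its sign was not fixed.

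Over the 15 tendon libraries, 12139 genes with a mean of at least 1 CPM were ranked by how closely their log2 CPM followed Sbno2. Unnamed genes, predicted genes (Gm and Rik names) and genes on X and Y were left out of that ranking. The closest were Tnip2 (Pearson r = 0.93), Stat5a (0.93), Card14 (0.90), Hmox1 (0.90) and B4galt5 (0.90). Other members had r of 0.86 for Bcl3, 0.84 for Osmr, 0.78 for Stat3 and 0.51 for Socs3. The coefficients for Stat5b, Socs2, Cish and Socs1 were 0.24, 0.34, 0.05 and -0.12. These libraries share groups and the stimulated 5-day libraries set much of the range, so the coefficients describe this sample set and carry no test. Over the 14 bone libraries the r of Sbno2 with Stat5a was -0.25.

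At 12 days in tendon, Sbno2 and Stat5a were higher in every stimulated library than in every unstimulated one, without passing the threshold. None of the 10 genes passed an adjusted p of 0.05 in edgeR's quasi-likelihood test with Benjamini-Hochberg adjustment, where 0.345% of all genes did. At an unadjusted p under 0.05 there were 2 of 10, Sbno2 and Stat5a, beside 1916 of all 17108 genes, and DESeq2 also called 0 of 10. Of all genes, 7.65% were higher with no overlap.

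Sbno2 had 40.7, 33.5 and 53.0 CPM in stimulated tendon at 12 days, against 28.5, 29.5 and 26.0 CPM in unstimulated tendon. The groups stood apart, with stimulated library 2 the nearest to the unstimulated range. Sbno2 had a log2 fold change of 0.60 ± 0.21 and an adjusted p of 0.277 from edgeR. Without stimulated library 3 the value was 0.40.

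Stat5a had 25.0, 24.9 and 31.3 CPM in stimulated tendon at 12 days, against 21.9, 22.8 and 22.6 CPM in unstimulated tendon. Again the groups did not overlap, and the log2 fold change was 0.27 ± 0.12 with edgeR's adjusted p at 0.440. Socs2 had 16.9, 13.0 and 14.7 CPM in stimulated libraries, against 13.9, 9.15 and 11.7 CPM in unstimulated libraries. These overlapped, at a log2 fold change of 0.36 ± 0.21 and an adjusted p of 0.587 in the same edgeR test.

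The other 7 members had log2 fold changes between -0.39 and 0.34 at 12 days, and their groups overlapped. Bcl3 had 4.63, 2.86 and 3.74 CPM in stimulated tendon, against 4.76, 3.18 and 2.96 CPM in unstimulated tendon. Osmr had 15.7, 17.8 and 25.0 CPM in stimulated libraries, against 18.3, 17.2 and 18.1 CPM in unstimulated libraries. Most Osmr libraries were thus within or near the naive range, while those of Bcl3 lay on both sides of it (3.46 to 3.80 CPM in naive tendon). Stat3 had 134, 106 and 157 CPM in stimulated and 128, 126 and 130 CPM in unstimulated tendon, so the stimulated libraries lay on both sides.

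**Figure D2:**
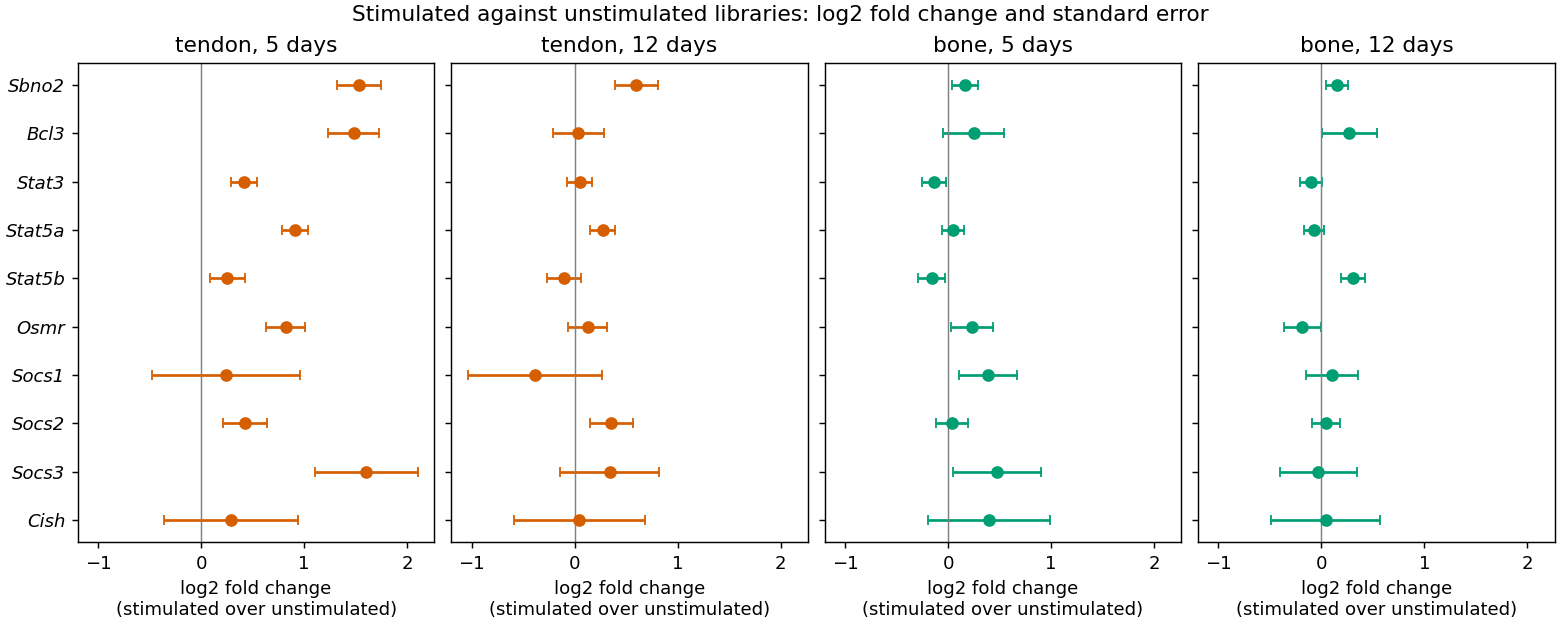
Log2 fold change of stimulated over unstimulated libraries for the 10 genes in tendon and bone at 5 and 12 days; points are edgeR estimates and bars their standard errors. In tendon at 5 days Socs3, Sbno2 and Bcl3 have the largest values (1.61, 1.54 and 1.48), and at 12 days Sbno2 is at 0.60.

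Against naive tendon, 2 members passed the threshold at 12 days in each group, Cish and Stat5b, both higher. Of all genes, 24.4% passed for stimulated against naive and 18.8% for unstimulated against naive. Both comparisons use the same naive libraries.

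Stat5b had 143, 134 and 123 CPM in stimulated and 138, 151 and 140 CPM in unstimulated tendon at 12 days, against 106, 95.9 and 79.8 CPM in naive tendon. Both 12-day groups lay wholly above the naive range, as did 19.2% of all genes for stimulated and 22.3% for unstimulated tendon. Its log2 fold change was 0.50 ± 0.17 for stimulated (edgeR's adjusted p = 0.0433) and 0.61 ± 0.17 for unstimulated libraries (edgeR's adjusted p = 0.0273). Neither call was firm: the first was lost without naive library 2 or 3 or any 1 stimulated library (adjusted p from 0.0549 to 0.163 in edgeR), and the second without naive library 2 or 3 or any 1 unstimulated library (0.0564 to 0.117). Without the count filter the first was at 0.0624 in edgeR.

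Cish had 76.0, 11.8 and 66.5 CPM in stimulated and 54.7, 17.6 and 76.9 CPM in unstimulated tendon at 12 days, against 8.73, 17.5 and 8.45 CPM in naive tendon. In each 12-day group, libraries 1 and 3 were several times the naive level and library 2 was within or just above the naive range. The log2 fold change was 2.15 ± 0.67 for stimulated (edgeR's adjusted p = 0.0359) and 2.11 ± 0.67 for unstimulated libraries (edgeR's adjusted p = 0.0455). The first call was lost without naive library 1 or 3 or stimulated library 1 or 3 (adjusted p from 0.0945 to 0.125 in edgeR). The second was lost whichever 1 of its 6 libraries was left out (0.0642 to 0.155). Without the count filter both were lost in edgeR (0.103 for stimulated and 0.123 for unstimulated tendon), and the first was lost with only the libraries compared in the fit (0.0682).

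Socs1 and Socs3 had the same layout in tendon. Socs1 had 9.64, 1.16 and 3.87 CPM in stimulated and 10.1, 1.31 and 7.45 CPM in unstimulated libraries at 12 days, against 1.45, 1.81 and 2.28 CPM in naive tendon. Library 2 of each 12-day group was below every naive library, while libraries 1 and 3 were above them. Its log2 fold change was 1.39 ± 0.68 for stimulated (edgeR's adjusted p = 0.148) and 1.77 ± 0.68 for unstimulated tendon (edgeR's adjusted p = 0.0818, and DESeq2's 0.0258). Without stimulated library 2 the first became 1.86 and passed in edgeR, with an adjusted p of 0.0397.

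Socs3 had 29.5, 7.18 and 35.3 CPM in stimulated and 21.9, 9.62 and 25.2 CPM in unstimulated tendon at 12 days, against 10.98, 18.6 and 9.94 CPM in naive tendon. Library 2 of both 12-day groups was again below every naive library, and libraries 1 and 3 above. The log2 fold change was 0.87 ± 0.48 for stimulated (edgeR's adjusted p = 0.202) and 0.52 ± 0.48 for unstimulated tendon (edgeR's adjusted p = 0.460). Without stimulated library 2 the first was 1.29, with an adjusted p of 0.0203 in edgeR.

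Sbno2 at 12 days differed from naive by 0.21 ± 0.21 on the log2 scale in stimulated tendon (edgeR's adjusted p = 0.493) and by -0.39 ± 0.21 in unstimulated tendon (edgeR's adjusted p = 0.196). Every unstimulated 12-day library was below every naive one, as for 25.4% of all genes, while the stimulated libraries overlapped the naive range. The second value passed, at an adjusted p of 0.0175 in edgeR, when only the libraries compared were fitted.

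**Figure D3:**
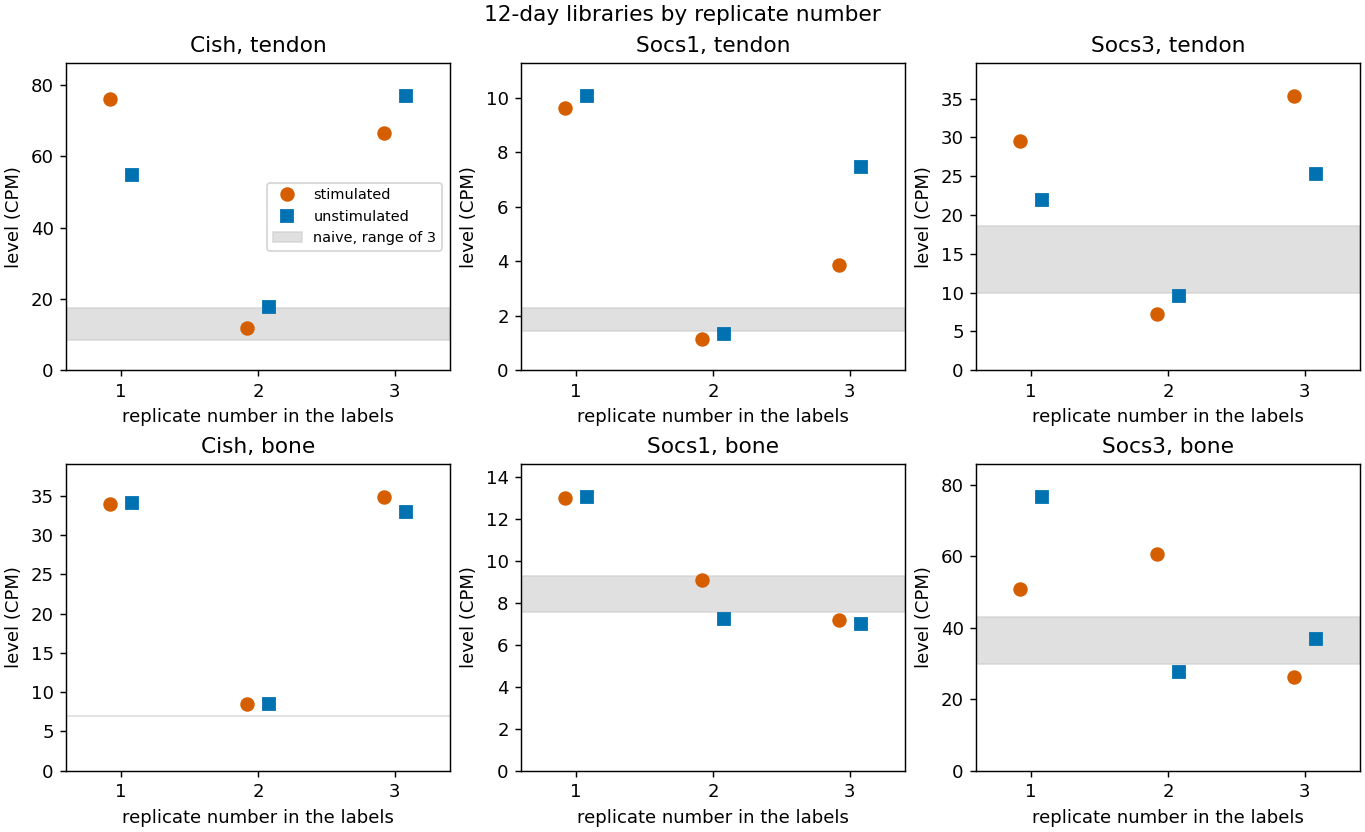
Level in CPM of Cish, Socs1 and Socs3 in the 12-day libraries of tendon and bone, by replicate number in the labels; orange circles are stimulated, blue squares unstimulated, and the grey band is the range of the 3 naive libraries. Libraries numbered 2 are the lowest for Cish in all 4 groups (11.8 and 17.6 CPM in tendon, 8.52 and 8.50 CPM in bone).

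The library numbered 2 was the lowest in all 4 of the 12-day groups, across both tissues, for 2 of the 10 members, Cish and Socs2. Of 16609 genes tested in both tissues, 228 (1.37%) had that layout. In bone at 12 days Cish had 33.9, 8.52 and 34.9 CPM in stimulated and 34.1, 8.50 and 32.9 CPM in unstimulated libraries. Socs2 had 38.8, 31.1 and 34.1 CPM in stimulated and 37.5, 30.0 and 33.4 CPM in unstimulated bone. At 5 days and in naive tendon the order of Cish was the opposite, with library 2 the highest in each tendon group.

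The labels do not say that a number marks 1 animal, day or batch, and this layout was noticed after the values were seen. Muscle fibre sums did not single out the tendon libraries numbered 2 in 1 direction: stimulated library 2 had the lowest of its group (155015 CPM) and unstimulated library 2 the highest (186709 CPM). Of the 12 marker lists, 3 were lowest in library 2 of both 12-day tendon groups. Muscle progenitor and regeneration markers summed 211.6 CPM in stimulated library 2 and 108 CPM in unstimulated library 2, adipocyte markers 29.9 and 36.4 CPM, and neutrophil markers 0.109 and 0.0847 CPM. None of the 12 lists was lowest in library 2 of all 4 groups, and the part of these cells was not tested. Over all 15 tendon libraries the genes closest to Cish, among genes chosen as for Sbno2, were Noc4l (r = 0.84), Cited2 (0.84), Socs1 (0.83), Nod2 (0.82) and Ccdc71 (0.82). The r of Cish with Socs3 was 0.73. They share libraries and groups and carry no test.

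Of 12 marker lists, 6 did not overlap between either 12-day group and naive tendon. The 10 muscle fibre markers summed 155015 to 186943 CPM in stimulated and 164098 to 186709 CPM in unstimulated tendon at 12 days, against 85280 to 124820 CPM in naive tendon. The 6 tendon fibroblast markers summed 438 to 1544 CPM in stimulated and 504 to 1096 CPM in unstimulated tendon, against 1754 to 3124 CPM in naive tendon. Erythroid markers were lower too, with 23.5 to 49.8 CPM in stimulated and 27.8 to 32.7 CPM in unstimulated tendon, against 112 to 159 CPM in naive tendon. The other 3 were also lower at 12 days. Osteoclast markers summed 18.4 to 42.9 CPM in stimulated and 23.3 to 40.2 CPM in unstimulated tendon, against 60.5 to 147 CPM in naive tendon. Adipocyte markers summed 29.9 to 88.1 CPM in stimulated and 36.4 to 73.2 CPM in unstimulated tendon, against 109 to 180.1 CPM in naive tendon. Neutrophil markers were near 0 throughout, at 0.109 to 0.460 CPM in stimulated and 0.0847 to 0.244 CPM in unstimulated tendon, against 1.31 to 1.97 CPM in naive tendon. Macrophage markers stood apart for unstimulated tendon alone, at 45.9 to 61.2 CPM, against 99.1 to 124 CPM in naive tendon. Their part in the higher Cish and Stat5b values was not tested.

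In bone, none of the members passed for stimulated against unstimulated libraries at either day. At 5 days 0 of 10 members passed in edgeR, and 0% of all genes did. At an unadjusted p under 0.05 there were 1522 genes and 0 members, and DESeq2 called 49 genes and 0 members. Libraries of 5 members did not overlap and were higher in stimulated bone (Sbno2, Bcl3, Socs1, Socs3 and Cish), where 14.7% of all genes did so with 3 libraries against 2. Osteoclast (4993 to 5249 against 3416 to 3473 CPM), osteoblast and osteocyte, and endothelium marker sums were also higher in stimulated bone without overlap. Sums of tendon fibroblast (1547 to 1924 against 2635 to 5041 CPM) and muscle progenitor markers were lower without overlap. Those of the other lists overlapped, and the part of these cells was not tested.

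Sbno2 had 127, 132 and 145 CPM in stimulated bone at 5 days, against 117 and 123 CPM in unstimulated bone. The log2 fold change was 0.16 ± 0.12 with an adjusted p of 0.759 in edgeR. Socs3 had 68.4, 53.2 and 46.6 CPM in stimulated libraries, against 38.3 and 42.3 CPM in unstimulated ones, at 0.48 ± 0.42 and edgeR's adjusted p of 0.794. The gap between groups was small for both beside the spread within them.

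The log2 fold changes of Bcl3, Socs1 and Cish in bone at 5 days were 0.25 ± 0.30, 0.38 ± 0.28 and 0.40 ± 0.60, with adjusted p of 0.846, 0.746 and 0.881 in edgeR. The Bcl3 groups were only just separated, with 19.5, 19.3 and 23.2 CPM in stimulated bone, against 19.3 and 15.5 CPM in unstimulated bone. Socs1 had 8.91, 7.48 and 9.60 CPM in stimulated bone, against 6.50 and 6.78 CPM in unstimulated bone. Cish had 18.2, 18.6 and 16.7 CPM in stimulated bone, against 14.5 and 12.6 CPM in unstimulated bone.

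At 12 days in bone 0 of 10 members passed, where 0.0371% of all genes did in edgeR, 1 member had an unadjusted p under 0.05 beside 2757 of all 18851 genes, and DESeq2 called 427 genes but 0 members. That member was Stat5b, with 64.3, 75.1 and 91.6 CPM in stimulated bone, against 59.4, 63.4 and 64.3 CPM in unstimulated bone. The groups met without overlapping (6.15% of all genes were higher with no overlap), and the log2 fold change was 0.30 ± 0.12 with an adjusted p of 0.277 in edgeR. Sbno2 had 125, 128 and 94.8 CPM in stimulated and 112, 103 and 97.6 CPM in unstimulated bone, which overlapped, at 0.15 ± 0.11 and an adjusted p of 0.564 in edgeR.

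**Figure D4:**
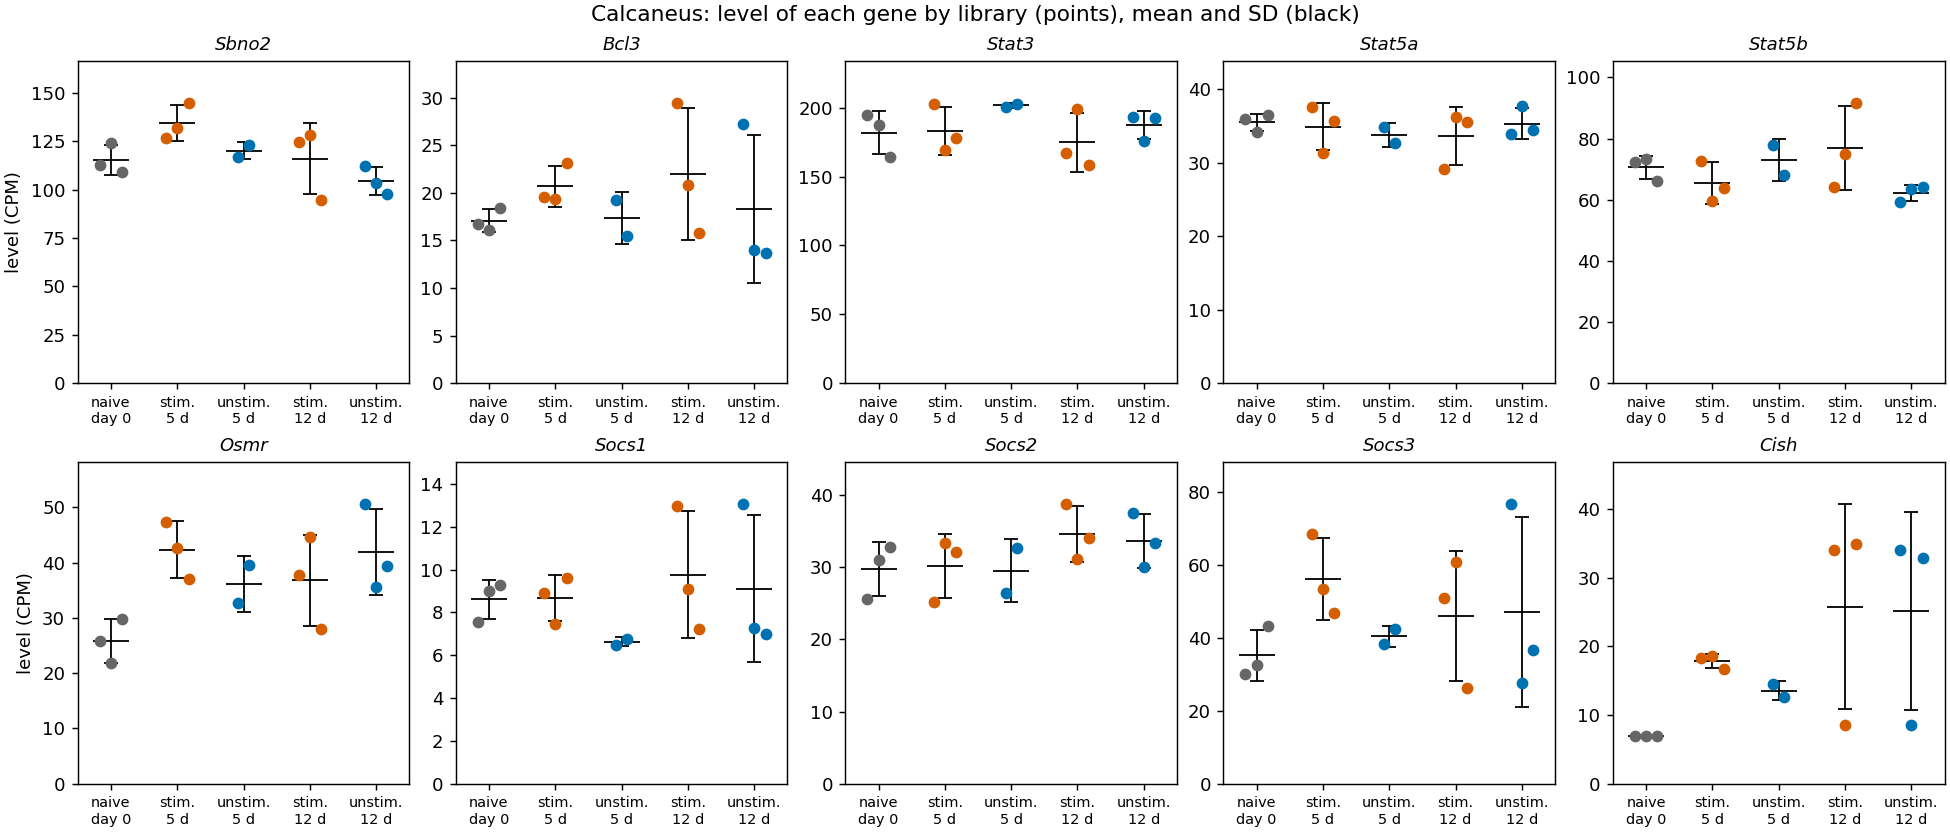
Level in CPM of each of the 10 genes in the 14 bone libraries, by group along the horizontal axis; points are libraries, and black bars are the mean and SD (2 libraries for unstimulated at 5 days, 3 otherwise). Osmr and Cish are above the naive range in most day 5 and day 12 libraries, and Stat3, Stat5a and Socs2 stay within narrow ranges.

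Against naive bone, Osmr and Cish were the members with the smallest p in each of the 4 comparisons, which share the naive libraries. Both passed for unstimulated bone at 12 days, where 21.8% of all genes passed. None of the 10 passed for stimulated bone at 5 days (0.228% of all genes, 2 members and 3069 genes at an unadjusted p under 0.05, 1 member in DESeq2), for unstimulated bone at 5 days (0.435%, 1 member and 2781 genes unadjusted, 0 members in DESeq2) or for stimulated bone at 12 days (4.54%, 2 members and 4367 genes unadjusted, 1 member in DESeq2).

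Osmr had 47.3, 42.7 and 37.0 CPM in stimulated and 32.6 and 39.7 CPM in unstimulated bone at 5 days, against 25.8, 21.9 and 29.8 CPM in naive bone. At 12 days it had 37.7, 44.6 and 28.1 CPM in stimulated and 50.7, 35.6 and 39.4 CPM in unstimulated bone. Only stimulated library 3 at 12 days fell inside the naive range. The log2 fold changes against naive were 0.71 ± 0.18 for stimulated and 0.48 ± 0.20 for unstimulated bone at 5 days (edgeR's adjusted p = 0.114 and 0.302). DESeq2 called the first of these, at an adjusted p of 0.0137.

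At 12 days the Osmr log2 fold change was 0.51 ± 0.18 for stimulated bone (edgeR's adjusted p = 0.121) and 0.70 ± 0.18 for unstimulated bone (edgeR's adjusted p = 0.0197). The second call was lost without naive library 2 (adjusted p = 0.0870 in edgeR) or without unstimulated library 1 (0.0861). The first passed without stimulated library 3 (0.0464).

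Cish had 6.99, 6.98 and 6.98 CPM in naive bone. Every later bone library was above that level, though those numbered 2 at 12 days only slightly. Of all genes, 11.3% and 18.2% were higher with no overlap at 5 days, and 11.5% and 19.5% at 12 days, stimulated before unstimulated. The log2 fold changes against naive were 1.36 ± 0.55 for stimulated and 0.96 ± 0.60 for unstimulated bone at 5 days (edgeR's adjusted p = 0.266 and 0.476). At 12 days they were 1.88 ± 0.56 for stimulated (edgeR's adjusted p = 0.0772) and 1.84 ± 0.56 for unstimulated bone (edgeR's adjusted p = 0.0384). The last call was lost without any 1 naive library or without unstimulated library 1 or 3 (adjusted p from 0.0831 to 0.117 in edgeR), while stimulated bone passed without its library 2 (0.0464). The call for unstimulated bone was lost without the count filter (0.0881) and with only the libraries compared (0.0666) in edgeR. Stimulated bone passed at 12 days in DESeq2 (adjusted p = 0.00218), and at 5 days with only the libraries compared in edgeR (0.0139).

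For unstimulated bone at 12 days, 6 of the 12 marker lists did not overlap with naive bone. Erythroid markers summed 3932 to 8000 CPM in unstimulated bone at 12 days, against 17218 to 52215 CPM in naive bone. Neutrophil markers summed 1868 to 3508 CPM in unstimulated bone at 12 days, against 4055 to 9443 CPM in naive bone, and tendon fibroblast markers 3222 to 4586 CPM, against 1634 to 1969 CPM. B and T cell markers summed 67.6 to 167 CPM in unstimulated bone at 12 days, against 235 to 271 CPM in naive bone, and osteoclast markers 3318 to 4228 CPM, against 5221 to 7008 CPM. Adipocyte markers were higher, at 503 to 610.2 CPM in unstimulated bone at 12 days, against 188 to 357 CPM in naive bone. In stimulated bone at 12 days tendon fibroblast markers alone stood apart from naive bone, at 2933 to 4161 CPM. The part of these cells in the Osmr and Cish values was not tested.

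Naive tendon and naive bone, scaled together, differed for 4 members where 68.4% of all genes passed. The labels do not say whether the 2 tissues came from the same mice, and the fit treated all libraries as independent. Muscle fibre markers, scaled within each tissue, summed 85280 to 124820 CPM in naive tendon and 144 to 14084 CPM in naive bone. Neutrophil markers summed 1.31 to 1.97 CPM in naive tendon and 4055 to 9443 CPM in naive bone. The part of these cells in the differences between tissues was not tested. Stat5b was higher in tendon, at 118 CPM against 55.4 CPM in bone on average, with a log2 difference of 1.10 ± 0.16 (edgeR's adjusted p = 2.34e-06). Bcl3 was lower in tendon by 1.55 ± 0.26 on the log2 scale, averaging 4.57 CPM in tendon and 13.4 CPM in bone (edgeR's adjusted p = 1.62e-05). Sbno2 was also lower in tendon, with 46.5 CPM in tendon and 90.5 CPM in bone on average and a log2 difference of -0.96 ± 0.17 (edgeR's adjusted p = 3.18e-05). Socs1 averaged 2.33 CPM in tendon and 6.74 CPM in bone, a log2 difference of -1.53 ± 0.54 (edgeR's adjusted p = 0.0161, and 0.0608 without tendon naive library 1). Cish differed by 1.41 ± 0.66 without passing in edgeR (adjusted p = 0.0636), and it passed in DESeq2 (0.0452) and with only the libraries compared in edgeR's fit (0.00498).

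Whether the stimulation effect at 12 days differed between tissues was tested as an interaction over all 29 libraries, again treated as independent. None of the 10 members passed (0.222% of all genes did), 0 had an unadjusted p under 0.05 beside 2160 of all 19845 genes, and DESeq2 called 0. Tendon minus bone, the difference of log2 fold changes was -0.46 ± 0.22 for Stat5b, 0.29 ± 0.16 for Stat5a and 0.41 ± 0.24 for Sbno2, with adjusted p of 0.464, 0.539 and 0.580 in edgeR. The 5-day effect was not compared between tissues by a test, since its tendon side chose the genes.

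A list of 57 other genes of the pathway was read beside the members, and 47 of them were tested in tendon. At 5 days 0 of 47 passed for stimulated against unstimulated tendon in edgeR, where 0.0585% of all genes did. Unadjusted p was under 0.05 for 11 of the 47, beside 1417 of all 17108 genes, and DESeq2 called 3 of the 47. Log2 fold changes were above 0 for 34 of 47, with a median of 0.17 against -0.00 over all genes. Over all genes 8433 of 17108 were above 0. The pathway list was chosen with earlier results of these data known, so its counts here are a description. By role, the counts above 0 were 4 of 6 ligand genes, 11 of 13 receptor genes, 4 of 4 Janus kinase genes, 3 of 3 other STAT genes, 3 of 9 negative regulators and 9 of 12 known targets and partners, and differences between roles were not tested. Ptpn1 and Ptpn2 had the smallest p.

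Ptpn1 encodes a tyrosine phosphatase that acts on Janus kinases. It had 38.2, 32.6 and 38.1 CPM in stimulated tendon at 5 days, against 23.5, 24.7 and 28.2 CPM in unstimulated tendon, with no overlap. The log2 fold change was 0.51 ± 0.11 (edgeR's adjusted p = 0.151, and DESeq2's 0.0103). Ptpn2, its close relative, had 18.1, 21.2 and 14.4 CPM in stimulated libraries, against 13.2, 12.3 and 9.91 CPM in unstimulated libraries, at 0.60 ± 0.13 (edgeR's adjusted p = 0.163, and DESeq2's 0.0177). Without stimulated library 3, Ptpn2 passed in edgeR (0.0436).

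At 12 days Ptpn1 was the 1 of 47 pathway genes that passed for stimulated against unstimulated tendon, and it was higher. Of all genes, 0.345% passed. Ptpn1 had 45.3, 34.6 and 46.1 CPM in stimulated tendon, against 25.5, 28.1 and 24.9 CPM in unstimulated tendon. The groups stood apart, with a log2 fold change of 0.68 ± 0.11 (edgeR's adjusted p = 0.0203). The call was lost without any 1 of the libraries compared other than stimulated library 2, with adjusted p from 0.0724 to 0.156 in edgeR, and with only the libraries compared in the fit (0.221).

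**Figure D5:**
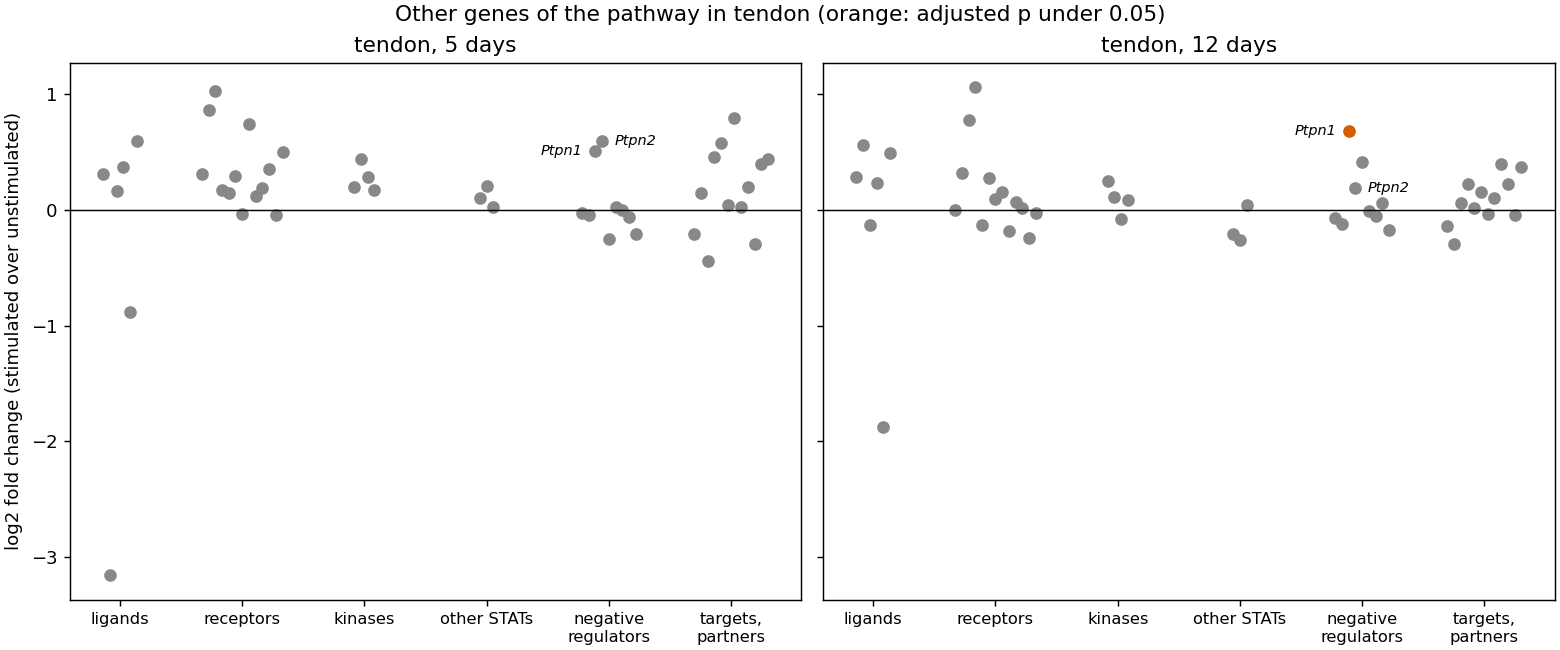
Log2 fold change of stimulated over unstimulated tendon at 5 and 12 days for the 47 other pathway genes tested, grouped by role along the horizontal axis; each point is 1 gene, and orange marks an adjusted p under 0.05. Ptpn1 is at 0.51 at 5 days and at 0.68, in orange, at 12 days.

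The ligand genes were at low levels in tendon, where 7 of 13 did not pass the count filter. Il6 and Osm were at most 0.169 and 0.151 CPM in any tendon library, and were singled out after their values were seen.

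Against naive tendon, 4 pathway genes were higher and 11 lower in stimulated tendon at 12 days (11.8% and 12.5% of all genes), and 3 were higher and 9 lower in unstimulated tendon (8.17% and 10.6%). Nfil3, a transcriptional repressor gene, was higher by 1.17 ± 0.17 on the log2 scale in stimulated and by 0.95 ± 0.17 in unstimulated tendon (edgeR's adjusted p = 0.00158 and 0.00942). Ccnd1, the cyclin D1 gene, was at -1.07 ± 0.17 in stimulated and -1.13 ± 0.17 in unstimulated tendon (edgeR's adjusted p = 0.00241 and 0.00512). Timp1, which encodes a metalloproteinase inhibitor, was at -1.42 ± 0.24 in stimulated and -1.79 ± 0.25 in unstimulated tendon (edgeR's adjusted p = 0.00350 and 0.00474).

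Pias3, which encodes an inhibitor of STAT3, was at -0.65 ± 0.11 in stimulated tendon (edgeR's adjusted p = 0.00332). Clcf1, a ligand gene of the gp130 family, was at -1.08 ± 0.19 in unstimulated tendon (edgeR's adjusted p = 0.00944, and 0.0625 without unstimulated library 2). Ccnd1 and Timp1 were thus lower, and Nfil3 and Cish higher, in the same comparisons. Of the 12 known targets and partners, log2 fold changes were above 0 for 6 in stimulated and 5 in unstimulated tendon.

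In bone 52 pathway genes were tested, and 0 passed for stimulated against unstimulated libraries at either day in edgeR. Of all genes, 0% passed at 5 days and 0.0371% at 12 days. At 5 days 4 pathway genes had an unadjusted p under 0.05, beside 1522 of all 18851 genes, and DESeq2 called 0. At 12 days 13 did, beside 2757 of all 18851 genes, and DESeq2 called 1. At 5 days the smallest p were those of Lif, a ligand gene, at 0.62 ± 0.24, and Bcl6, at -0.30 ± 0.12 (edgeR's adjusted p = 0.546 and 0.554). At 12 days they were those of Il2rg, the shared receptor chain of several lymphoid cytokines, at 0.82 ± 0.21 (edgeR's adjusted p = 0.160) and of Ptpn6, a phosphatase gene of blood cells, at 0.73 ± 0.25 (edgeR's adjusted p = 0.242).

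Against naive bone, 2 receptor genes of the gp130 family, Il11ra1 and Cntfr, were higher in all 4 groups. Of all genes, 0.228% and 0.435% passed in either direction at 5 days, and 4.54% and 21.8% at 12 days, stimulated before unstimulated. Il11ra1, the interleukin-11 receptor gene, had 115, 130 and 107 CPM in stimulated and 93.4 and 95.5 CPM in unstimulated bone at 5 days, against 62.8, 51.0 and 52.6 CPM in naive bone. At 12 days it had 149, 152 and 125 CPM in stimulated and 166, 131 and 118 CPM in unstimulated bone. A close copy, Il11ra2, can share its reads, so its counts are uncertain to that extent. No later library overlapped the naive ones. Higher with no overlap were 11.3% and 18.2% of all genes at 5 days, and 11.5% and 19.5% at 12 days, in the same order. The log2 fold changes of Il11ra1 were 1.08 ± 0.14 and 0.77 ± 0.15 at 5 days and 1.35 ± 0.14 and 1.32 ± 0.14 at 12 days, stimulated before unstimulated. All 4 passed in edgeR, with adjusted p of 0.0177, 0.0490, 0.00146 and 0.000573, and both 5-day calls were lost without naive library 2 or 3. The first of them was also lost without stimulated library 1, and the second without either unstimulated library or with only the libraries compared (0.155).

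Cntfr, the ciliary neurotrophic factor receptor gene, averaged 9.85 ± 3.09 CPM (SD) in stimulated and 10.2 ± 1.61 CPM in unstimulated bone at 5 days, 10.98 ± 1.20 and 12.0 ± 0.830 CPM at 12 days, and 3.57 ± 0.979 CPM in naive bone. Its log2 fold changes against naive were 1.46 ± 0.23 and 1.497 ± 0.25 at 5 days (edgeR's adjusted p = 0.0311 and 0.0341) and 1.61 ± 0.23 and 1.74 ± 0.23 at 12 days (edgeR's adjusted p = 0.00695 and 0.00140). The 5-day calls were lost without naive library 2 or 3, without any 1 stimulated library for the first, and without either unstimulated library for the second. With only the libraries compared, edgeR's adjusted p was 0.0868 and 0.155 at 5 days and 0.0762 for stimulated bone at 12 days. Marker sums that stood apart from naive bone at 12 days are given above. Their part in the Il11ra1 and Cntfr values was not tested.

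For stimulated bone at 12 days, 4 pathway genes were higher and 0 lower than in naive bone (2.08% and 2.46% of all genes), the others being Thpo at 1.23 ± 0.31 and Ghr, the growth hormone receptor gene, at 0.48 ± 0.12 (edgeR's adjusted p = 0.0431 and 0.0449). The Thpo call was lost without naive library 2 or 3 or any 1 stimulated library, and the Ghr call without any 1 of the 6 libraries, and both were lost with only the libraries compared (0.136 in edgeR for each). For unstimulated bone at 12 days, 6 were higher and 13 lower (10.1% and 11.7% of all genes). Ghr was higher there by 0.66 ± 0.12 and Pim1, a kinase gene switched on by STAT5, was at -0.95 ± 0.17 (edgeR's adjusted p = 0.00404 and 0.00382). Pim1 had 22.1, 25.5 and 23.1 CPM in unstimulated bone at 12 days, against 34.1, 45.5 and 57.4 CPM in naive bone. These groups did not overlap, and 20% of all genes were lower with no overlap.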

How the data were processed

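Poly-A RNA libraries of 15 tendon and 15 bone samples were sequenced, and the authors deposited 1 table of estimated counts per gene, whose values are all whole numbers. Per the submitters' processing notes, tools included cutadapt 2.3, STAR 2.7.8a, RSEM 1.3.3, FastQC 0.11.8 and MultiQC 1.7 with the GRCm38 build. The strand setting is not given in the sources used here. Bone unstimulated 5-day samples 1 and 2, known from earlier results of these data to be nearly identical, were summed to 1 library, which leaves 29.

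Genes with a count of at least 10 in enough libraries and 15 in total (edgeR's filter) were kept for each tissue. Counts were scaled by TMM and fitted with edgeR 4.0.16 (quasi-likelihood test, R 4.3.3), all groups of a tissue sharing 1 spread, or all libraries of both tissues for tests between tissues. Calls are Benjamini-Hochberg adjusted p under 0.05 over all genes tested. Log2 fold changes have standard errors from the fit, levels are CPM, and likeness is Pearson's r of log2 CPM with a prior count of 2. Rankings by likeness left out unnamed genes, predicted genes (Gm and Rik names) and genes on X and Y.

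The members, the pathway list and the marker lists were chosen with earlier results of these data known. Named are all 10 members and, per comparison, up to 4 called pathway genes with the smallest adjusted p, or up to 2 with the smallest p where none was called. Coordinates come from the GENCODE annotation of GRCm38, to which 55240 of 55426 gene IDs matched (99.7%), and promoters from RefSeq. Alternatives were DESeq2 1.42.0, its size factors within edgeR, no count filter, only the libraries compared, the replicate number as a block, the near-identical pair kept apart, and each library left out in turn. The fit was tested on simulated data.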

Additional observations from a re-analysis of the deposited data

How the results depend on the processing

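Of the single-gene values followed through the alternatives, no called one changed sign and 1 other did. That was Osmr in unstimulated against naive tendon at 5 days, at -0.10, which was 0.04 without unstimulated library 1. Some values given above were not followed, such as those of Bcl3, Osmr and Stat3 for stimulated against unstimulated tendon at 12 days. DESeq2 called more genes for stimulated against unstimulated libraries, with 134 at 5 days and 381 at 12 days in tendon and 49 and 427 in bone, against 10, 59, 0 and 7 in edgeR. Fitting only the libraries compared left 0 of the 10, 59 and 7 genes called in those 2 tendon and the 12-day bone comparison. Without the count filter the 5-day tendon count was 17, the 5-day bone count 1 and the 12-day bone count 32. With DESeq2's size factors within edgeR the 12-day bone count was 1, and with the near-identical bone pair kept apart the bone counts were 3 at 5 days and 11 at 12 days. Leaving out 1 library gave 0 to 20 genes in tendon at 5 days, 2 to 672 at 12 days, 0 to 14 in bone at 5 days and 0 to 7 at 12 days.

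Members called moved as follows. DESeq2 gave 1 against 0 for stimulated bone against naive at 5 and at 12 days. No filter gave 0 for stimulated and 1 for unstimulated tendon at 12 days against naive, and 1 for unstimulated bone at 12 days, each 2 in the main setting. Only the libraries compared gave 1 for stimulated tendon and 1 for unstimulated bone at 12 days, and 1 for stimulated bone at 5 days. Leaving out 1 library gave 0 to 3 for stimulated and 0 to 1 for unstimulated tendon at 12 days against naive, 0 to 1 for stimulated and 0 to 2 for unstimulated bone at 12 days, and 3 to 5 for naive tendon against naive bone (4 in the main setting). For naive tendon against naive bone DESeq2 gave 5 and only the libraries compared 6, and for unstimulated tendon at 12 days against naive both gave 3.

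Pathway genes called under DESeq2 were 3 in tendon at 5 days, 2 at 12 days and 1 in bone at 12 days for stimulated against unstimulated, and 5 at 5 days and 10 at 12 days for stimulated bone against naive. Only the libraries compared gave 0 for stimulated against unstimulated tendon at 12 days, 1 for stimulated and 0 for unstimulated bone at 5 days against naive, and 1 for stimulated and 11 for unstimulated bone at 12 days. Leaving out 1 library gave 0 to 1 in tendon at 5 days and 0 to 3 at 12 days for stimulated against unstimulated, 8 to 15 for stimulated and 3 to 9 for unstimulated tendon at 12 days against naive, 0 to 2 for either bone group at 5 days, and 2 to 6 for stimulated and 7 to 22 for unstimulated bone at 12 days. The cause of these shifts was not tested.

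Whether replicate numbers pair the samples was not settled, and with 3 samples per group this check cannot exclude it. Within a tissue, same-numbered deviations of stimulated and unstimulated samples had correlations of -0.14, 0.20 and 0.22 in tendon at 5 days. The correlation fell below 0.1 for at least 1 number in every tissue and day. Only number 3 matched itself best, in tendon at both days and in bone at 12 days. Tendon was not compared with bone, and the near-identical bone pair was kept apart here. With the replicate number as a block, the counts of all genes called were 6 in tendon at 5 days and 3 in bone at 12 days, and 1 member was called for each tendon group at 12 days against naive (Cish was lost in both, at an adjusted p of 0.0645 for stimulated and 0.0753 for unstimulated tendon in edgeR).

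Depth did not bar the members from a test, since all 10 passed the count filter in both tissues. Socs1 in tendon, at 1 to 2 CPM in most libraries, rests on the fewest counts. With 3 libraries per group, 1 library often decided a call.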
